A study of Mus musculus with 6 samples.

Results

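The innate immune genes described here are 10 genes of bacterial and nucleic acid sensing, taken by symbol from the deposited count table of mouse liver: the Toll-like receptor genes Tlr1, Tlr2, Tlr4, Tlr5, Tlr7 and Tlr9, the lipopolysaccharide (LPS) handling genes Lbp, Cd14 and Ly96, and the adaptor gene Myd88. They are 10 of 40803 genes in the table, and all 10 had enough counts to be tested. Liver RNA from 6 male C57BL6 mice was sequenced, with 1 library per mouse and 3 mice per group. In the rAAV8-Hnf1aos1 group, a recombinant adeno-associated virus of serotype 8 carried a short hairpin RNA against the long non-coding RNA Hnf1aos1, transcribed from the U6 promoter. In the rAAV8-Scramble group the same kind of vector carried a scrambled hairpin. Both vectors also carried an EGFP reporter gene, so every mouse had received virus and no uninjected mouse was sequenced. The animals were about 6 weeks old when the vector was given by tail vein, were fed normally, and were killed 4 weeks later. Serotype 8 mainly enters hepatocytes, whereas most of the receptor genes described here are known from macrophages and other non-hepatocyte cells, and whole liver RNA mixes all of them.

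Toll-like receptors are membrane proteins that recognise conserved microbial molecules. TLR1, TLR2, TLR4 and TLR5 sit at the cell surface and bind bacterial lipoproteins, LPS and flagellin, while TLR7 and TLR9 sit in endosomes and bind single-stranded RNA and unmethylated CpG DNA. For LPS, the plasma protein LBP, which is made mainly by hepatocytes, extracts the molecule from bacterial membranes, CD14 receives it, and MD-2, encoded by Ly96, presents it to TLR4. All of the receptors among the 10 genes signal through the adaptor MyD88 toward NF-kappaB. Blood from the gut reaches the liver through the portal vein, and Kupffer cells, the resident liver macrophages, are a main site of this sensing.

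Stretches of sequence before the start sites of Myd88, Tlr2 and Tlr5 are shown because motifs of factors that act in these pathways were found in them. RefSeq promoter windows were at hand for 5 of the 10 genes (Tlr1, Tlr2, Tlr5, Tlr9 and Myd88), and the 250 bases before each start site were searched on both strands for a kappaB-like motif (GGG, any 5 bases, then CC), a STAT-like motif (TTC, any 3 bases, then GAA), an interferon response-like motif (GAAA, any 2 bases, then GAAA) and a TATA box (TATAAA). All sequences are from RefSeq, build GRCm38.p6, written 5′ to 3′ on the strand of the gene, with motif matches in capitals and positions counted backwards from the start site. The Myd88 stretch lies at chr9:119340042-119340268 on the minus strand, from -250 to -24, and is outside every exon of Myd88 in GENCODE M21, although a longer Myd88 transcript, 1 Acaa1a transcript and 1 Slc22a14 transcript span it as intron. The Tlr2 site lies at chr3:83841762-83841791 on the minus strand. Its last bases are inside the Tlr2 gene of GENCODE M21, which begins at 83841767 on that strand. The Tlr5 site lies at chr1:182954758-182954787 on the plus strand, just before the Tlr5 gene of GENCODE M21. It is inside the RefSeq span of Tlr5, which begins after -37. Distances are from the RefSeq start sites used here, and the Tlr2 matches lie much nearer to the GENCODE start.
Myd88: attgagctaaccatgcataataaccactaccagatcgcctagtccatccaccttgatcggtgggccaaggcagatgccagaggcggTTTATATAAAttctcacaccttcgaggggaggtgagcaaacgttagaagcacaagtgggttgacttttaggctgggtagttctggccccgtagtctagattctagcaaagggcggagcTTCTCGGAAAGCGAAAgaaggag
Tlr2: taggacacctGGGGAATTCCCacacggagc
Tlr5: agcagcgggcGGTGTTTCCCtctcctcccc
In Myd88, a STAT-like match at -46 to -38 overlapped an interferon response-like match at -40 to -31, and overlapping TATA box matches on both strands lay at -164 to -155. In Tlr2, overlapping kappaB-like matches covered -173 to -163, and in Tlr5 a kappaB-like match on the opposite strand lay at -20 to -11. Tlr1 had a STAT-like match at -228 to -220 of its second start site, and the window of Tlr9 and that of the first Tlr1 start site held none of the motifs. Of all 32851 RefSeq windows, 45.8% held the kappaB-like motif, 7.02% the STAT-like motif, 2.98% the interferon response-like motif, 12.4% the TATA box, and 0.332% both the STAT-like and the interferon response-like motif. These matches describe the letters in the windows, and binding was not measured.

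The targeted RNA was examined first. Hnf1aos1 (chr5:114968784-114998042 on the plus strand, GENCODE M21, GRCm38) had 512, 491 and 620.3 normalized counts in rAAV8-Scramble replicates 1, 2 and 3, and 278, 258 and 433 in rAAV8-Hnf1aos1 replicates 1, 2 and 3. Normalized counts are raw counts divided by library size after scaling with TMM. The groups did not overlap, and the log2 fold change was -0.74 with a standard error (SE) of 0.20 and an adjusted p of 0.0625 in edgeR, which missed the threshold of 0.05. Leaving out rAAV8-Hnf1aos1 replicate 3, the library with the most Hnf1aos1 in its group, moved the value to -1.01 and its adjusted p to 0.000261. Without any other single library the adjusted p was 0.113 to 0.218, above that with all libraries. The gene counts summed to between 14704746 and 16532510 per library in the rAAV8-Scramble group. In the rAAV8-Hnf1aos1 group they summed to between 18021614 and 19462398, so depth differed between the groups without overlap. Hepatocyte markers (Alb, Apoa1, Apob, Ttr, Trf and Serpina1a) summed to between 80958 and 95355 TPM (transcript reads scaled for length and library total) in every library. None of these 6 was called by edgeR, and 4 had an unadjusted p under 0.05, against 23.4% of all genes. All 6 had a log2 fold change above 0, with a median of 0.27. For 4 of them the rAAV8-Hnf1aos1 values lay wholly above the rAAV8-Scramble values, against 15.2% of all genes.

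Of the 10 genes, Tlr7 and Myd88 were higher in the rAAV8-Hnf1aos1 group and none was lower. Tlr7 rose 1.87-fold and Myd88 1.496-fold. At an adjusted p under 0.05, 6.32% of the 16327 tested genes passed, 3.09% upward and 3.23% downward, which is the background for the 2 of 10 that rose. At an unadjusted p under 0.05 the count was 4 of 10 (Tlr2, Tlr7, Cd14 and Myd88) against 23.4%. The rAAV8-Hnf1aos1 values lay wholly above the rAAV8-Scramble values for Tlr2, Tlr7, Lbp and Myd88, which is 4 of 10 against 15.2% of all genes, and for no gene wholly below, against 13.7% (28.9% in either direction). The log2 fold change was above 0 in 9 of the 10 genes, against 49.9% of all genes, with a median of 0.56 against 0.00 over all genes tested. The exception was Tlr5, which also came out above 0 when libraries were scaled to the spike-ins, a scaling that moved the median of all genes up by 0.20. The genes were not drawn at random and share cell types, so the counts describe these genes and were not tested as a set. DESeq2 called 3 of the 10 higher (Tlr2, Tlr7 and Myd88) against 3.64% of all genes, and with spike-in scaling edgeR called 3 (Tlr7, Cd14 and Myd88) against 18.6%. On the deposited TPM, limma called none, with an adjusted p of 0.147 for Tlr7 and 0.0888 for Myd88 and 3 of the 10 at an unadjusted p under 0.05.

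**Figure D1:**
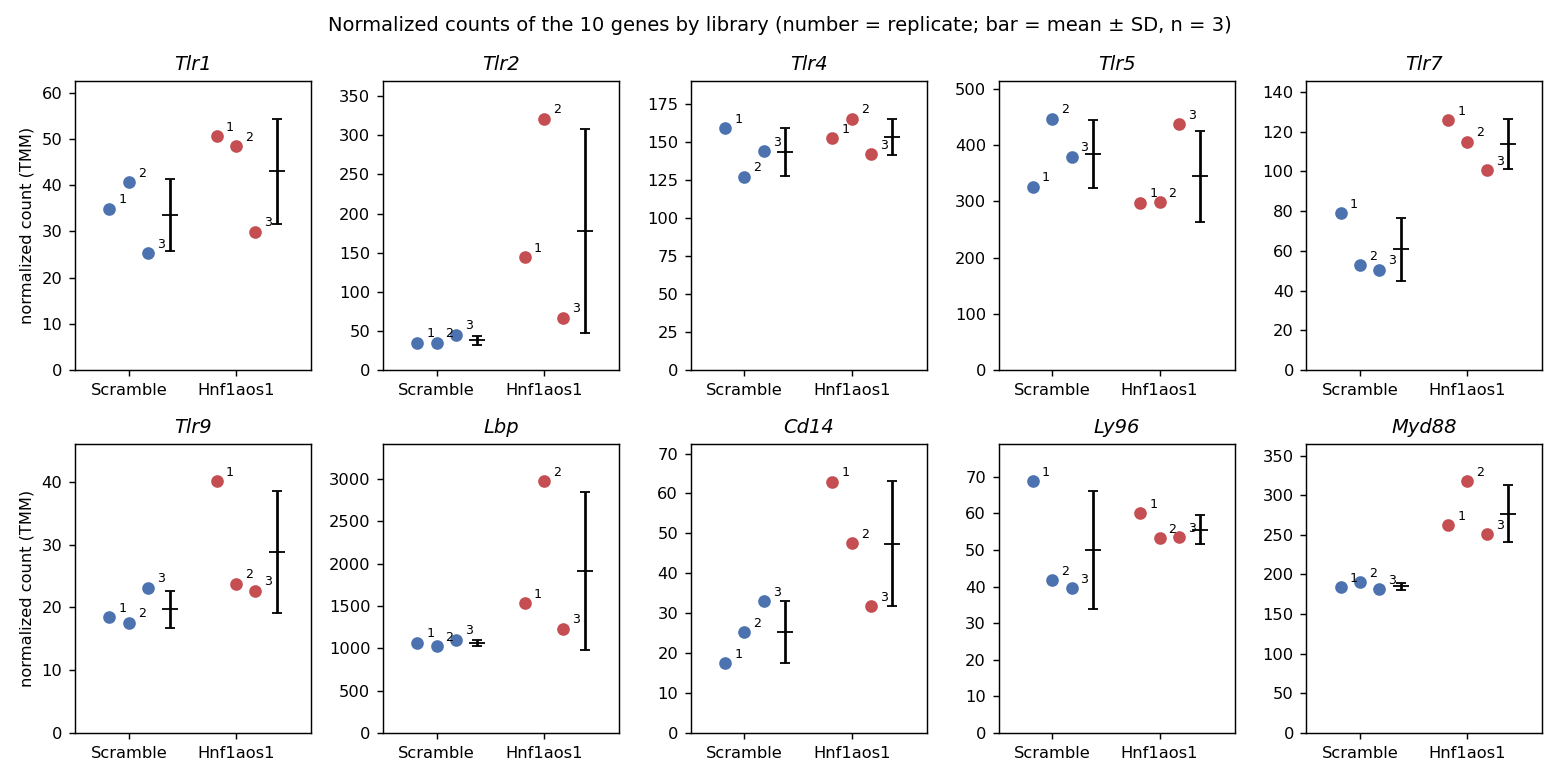
Normalized counts (TMM, vertical axes from 0, a scale of its own for each gene) of the 10 genes in the 3 rAAV8-Scramble libraries (blue) and the 3 rAAV8-Hnf1aos1 libraries (red), with the mean and SD of each group beside the points. The groups are apart for Tlr2, Tlr7, Lbp and Myd88, and for Tlr2 and Lbp the spread within the rAAV8-Hnf1aos1 group, 67.0 to 321 and 1234 to 2973, is much wider than that within the rAAV8-Scramble group.

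Levels between genes were compared in TPM, which corrects for transcript length. In the rAAV8-Scramble group Lbp was the most abundant at 54.996 ± 3.39 TPM (SD, n = 3). Myd88 (12.4 ± 0.20 TPM), Ly96 (10.8 ± 3.39 TPM) and Tlr5 (7.89 ± 1.18 TPM) followed, and their ranges over the libraries overlapped from each gene to the next. Tlr4 (2.22 TPM), Cd14 (1.99 TPM), Tlr2 (1.52 TPM), Tlr7 (1.43 TPM) and Tlr1 (1.34 TPM) formed a lower tier in which neighbours also overlapped, and Tlr9 was last at 0.742 ± 0.134 TPM. The gaps between Lbp and Myd88, between Tlr5 and Tlr4, and between Tlr1 and Tlr9 were the gaps in this order without overlap. In the rAAV8-Hnf1aos1 group the order of the first 4 genes was the same, at 93.2, 17.6, 11.4 and 6.69 TPM. Tlr2 stood next to Tlr5 there with 6.61 ± 4.72 TPM, and its range overlapped that of Cd14 (3.55 TPM). The ranges of Cd14 and Tlr7 (2.55 TPM) and of Tlr7 and Tlr4 (2.25 TPM) also overlapped, so the order of these genes was not resolved.

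Among the surface receptors, Tlr2 had the largest difference and also the largest spread. TLR2 binds bacterial lipoproteins as a partner of TLR1 or TLR6, and its gene lies at chr3:83836272-83841767 on the minus strand. It had 34.9, 35.1 and 45.1 normalized counts in rAAV8-Scramble replicates 1, 2 and 3, and 144, 321 and 67.0 in rAAV8-Hnf1aos1 replicates 1, 2 and 3. Every rAAV8-Hnf1aos1 library was above every rAAV8-Scramble library, but replicate 2 was far above replicate 3. This gave a log2 fold change of 2.20 (SE 0.65), with an adjusted p of 0.124 in edgeR. DESeq2 called the gene (adjusted p = 0.0138), and so did edgeR without rAAV8-Hnf1aos1 replicate 3 (log2 fold change 2.60, adjusted p = 0.00386). Without rAAV8-Hnf1aos1 replicate 2 the log2 fold change was 1.46 and the adjusted p 0.0510.

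Tlr4, the signalling receptor for LPS (chr4:66827584-66930284 on the plus strand), had 159, 127 and 144 normalized counts in the rAAV8-Scramble libraries and 153, 165 and 142 in the rAAV8-Hnf1aos1 libraries. The groups overlapped almost entirely, with a log2 fold change of 0.09 (SE 0.14, adjusted p = 0.735). Tlr5, the receptor for bacterial flagellin (chr1:182954788-182976044 on the plus strand), had 326, 447 and 379 normalized counts against 298, 298 and 437. Here rAAV8-Hnf1aos1 replicates 1 and 2 were below all rAAV8-Scramble libraries and replicate 3 was inside their range, with a log2 fold change of -0.16 (SE 0.17, adjusted p = 0.6235). Tlr1, whose product pairs with TLR2 (chr5:64924679-64933563 on the minus strand), had 34.9, 40.6 and 25.3 normalized counts against 50.5, 48.5 and 29.9, again with overlap because of replicate 3, and a log2 fold change of 0.35 (SE 0.29, adjusted p = 0.500). Tlr1 shares 454 of its 3332 stretches of 50 bases, 13.6%, with the transcripts of its paralog Tlr6. As the authors counted uniquely mapped reads, part of the reads of this pair may be uncounted, so the levels of Tlr1 and Tlr6 are uncertain.

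Of the endosomal receptors, Tlr7 passed the test and Tlr9 did not. Tlr7, the receptor for single-stranded RNA (chrX:167304929-167330558 on the minus strand), had 79.0, 52.7 and 50.6 normalized counts in rAAV8-Scramble replicates 1, 2 and 3, and 126, 115 and 101 in rAAV8-Hnf1aos1 replicates 1, 2 and 3. All rAAV8-Hnf1aos1 libraries were above all rAAV8-Scramble libraries, and rAAV8-Scramble replicate 1 stood above the other two of its group. Its log2 fold change was 0.90 (SE 0.21, adjusted p = 0.0311). The value stayed between 0.78 and 1.14 with each library left out, yet the call was kept only without rAAV8-Scramble replicate 1 (adjusted p = 0.0183) or rAAV8-Hnf1aos1 replicate 3 (adjusted p = 0.0129). It was lost without rAAV8-Scramble replicate 2 (adjusted p = 0.103) or 3 (adjusted p = 0.159) and without rAAV8-Hnf1aos1 replicate 1 (adjusted p = 0.0822) or 2 (adjusted p = 0.0897). Tlr9, the receptor for CpG DNA (chr9:106222598-106226883 on the plus strand), was near the lower end of what the depth resolves, with 18.5, 17.6 and 23.1 normalized counts against 40.1, 23.8 and 22.6. Only rAAV8-Hnf1aos1 replicate 1 stood clearly apart, and the log2 fold change was 0.54 (SE 0.33, adjusted p = 0.346).

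Lbp, Cd14 and Ly96, the genes that deliver LPS to TLR4, had higher means in the rAAV8-Hnf1aos1 group, but none of the 3 passed the test. Lbp (chr2:158306493-158332852 on the plus strand) encodes a plasma protein of the acute phase. It had 1066, 1028 and 1099.8 normalized counts in the rAAV8-Scramble libraries, a coefficient of variation of 3.35%, and 1532, 2973 and 1234 in rAAV8-Hnf1aos1 replicates 1, 2 and 3. Every rAAV8-Hnf1aos1 library exceeded the rAAV8-Scramble libraries, and replicate 2 had the highest value. The log2 fold change was 0.85 (SE 0.36, adjusted p = 0.246), and without rAAV8-Hnf1aos1 replicate 2 it was 0.38 (adjusted p = 0.121).

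Cd14, the co-receptor that hands LPS to the TLR4 complex, lies on chromosome 18 (36725067 to 36726798 on the minus strand). It had 17.4, 25.2 and 33.0 normalized counts in the rAAV8-Scramble libraries against 62.9, 47.5 and 31.7 in the rAAV8-Hnf1aos1 libraries. The overlap came from rAAV8-Hnf1aos1 replicate 3, which was just under rAAV8-Scramble replicate 3. Cd14 had a log2 fold change of 0.91 (SE 0.33, adjusted p = 0.124), and the gene was called without rAAV8-Hnf1aos1 replicate 3 (log2 fold change 1.13, adjusted p = 0.0329). Ly96, which encodes MD-2, the subunit of the TLR4 complex that binds LPS (chr1:16688051-16709611 on the plus strand), had 68.7, 41.7 and 39.6 normalized counts against 60.1, 53.2 and 53.4. The rAAV8-Hnf1aos1 values lay inside the rAAV8-Scramble range, with a log2 fold change of 0.15 (SE 0.25, adjusted p = 0.772). Thus, of the receptor complex for LPS itself, neither Tlr4 nor Ly96 showed a difference larger than the spread between mice.

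Myd88, the adaptor shared by these receptors (chr9:119335934-119341411 on the minus strand), was the other gene called. It had 184, 189.9 and 181 normalized counts in rAAV8-Scramble replicates 1, 2 and 3, and 262, 317 and 251 in rAAV8-Hnf1aos1 replicates 1, 2 and 3. The rAAV8-Scramble values varied by 2.36% (coefficient of variation), and every rAAV8-Hnf1aos1 value was above them. The log2 fold change was 0.58 (SE 0.13, adjusted p = 0.0239), and it ranged from 0.47 to 0.65 with each library left out. The call was kept without rAAV8-Hnf1aos1 replicate 1 (adjusted p = 0.0338) or 3 (adjusted p = 0.00799). It was lost without rAAV8-Scramble replicate 1 (adjusted p = 0.0623), 2 (adjusted p = 0.0639) or 3 (adjusted p = 0.123) and without rAAV8-Hnf1aos1 replicate 2 (adjusted p = 0.0989). In GENCODE M21 the gene overlaps Acaa1a on the other strand and lies within the span of Slc22a14 on its own strand, which had 11 counts over all 6 libraries, and the strand setting of the counting is not given in the sources used here. Acaa1a itself had a log2 fold change of -0.05 (SE 0.14, adjusted p = 0.860).

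**Figure D2:**
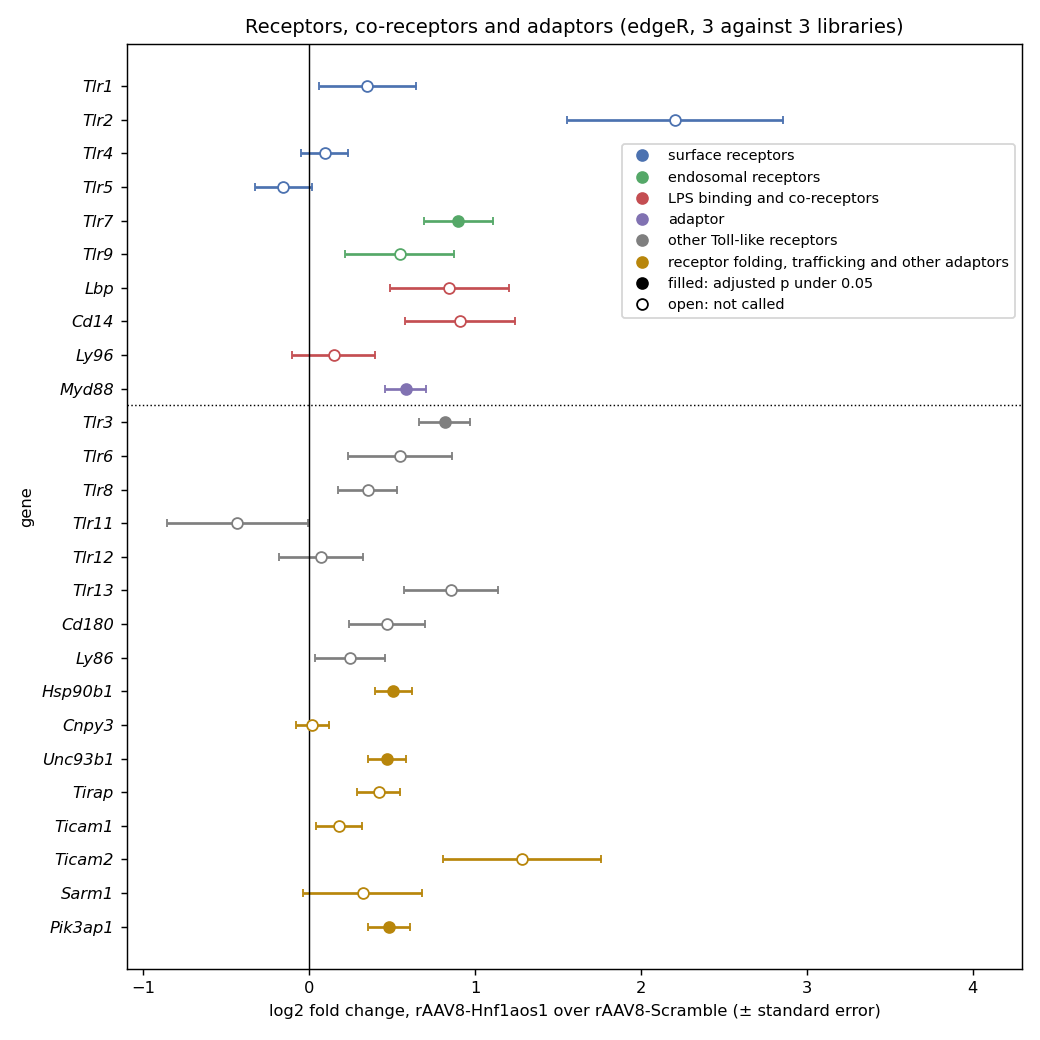
Log2 fold changes (horizontal axis) with their standard errors from edgeR for the 10 genes (above the dotted line), and for the other Toll-like receptors and the genes of receptor folding, trafficking and adaptors below it. Filled points have an adjusted p under 0.05: Tlr7 at 0.90 and Myd88 at 0.58 above the line, Tlr3, Hsp90b1, Unc93b1 and Pik3ap1 below it. Tlr2 is farthest to the right at 2.20 and has the longest error bar of the 10 genes.

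The rAAV8-Hnf1aos1 libraries did not shift together. Replicate 3 had the lowest value of its group in 8 of the 10 genes, all but Tlr5 and Ly96. The share of all genes with their lowest value in this library was not computed, and the 10 genes share cell types. This library also had the most Hnf1aos1 of its group, but it is 1 mouse, and a relation between the levels was not tested. Replicate 1 had the highest value in 5 genes and replicate 2 in 4. In the rAAV8-Scramble group no library held the lowest value in more than 4 genes.

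Markers of liver macrophages were higher as well, where 49.9% of all genes had a log2 fold change above 0 and 3.09% were called higher. The 6 hepatocyte markers were also all above 0, with a median of 0.27. Of 6 Kupffer cell markers all 6 had a log2 fold change above 0 with a median of 0.42, and Clec4f was called (0.44, adjusted p = 0.0327). Of 7 general macrophage markers all 7 were above 0 with a median of 0.45, and Adgre1, C1qa, C1qb and Lyz2 were called (0.41 to 0.55). All 5 of these calls were lost without rAAV8-Scramble replicate 2 or 3 or rAAV8-Hnf1aos1 replicate 2 (adjusted p = 0.0779 to 0.208), all but that of Lyz2 without rAAV8-Hnf1aos1 replicate 1 (0.0594 to 0.124), and those of Adgre1 and C1qb without rAAV8-Scramble replicate 1 (0.0700 and 0.0799). With all libraries, the call of Adgre1 was lost with DESeq2 (0.0782), voom (0.0585), DESeq2's size factors (0.0514), library totals (0.0865) and the replicate number as a block (0.0669). That of C1qb was lost with voom (0.0648), library totals (0.0865) and the replicate block (0.0571), and that of Clec4f with library totals (0.0516). All 5 were lost with limma on TPM (0.111 to 0.229). The summed TPM of the 13 markers ranged from 331 to 403 in the rAAV8-Scramble group and from 408 to 512 in the rAAV8-Hnf1aos1 group, with the lowest value of the latter in replicate 3. In bulk RNA, fewer cells of a type and less RNA per cell cannot be told apart, and the same holds for more of either. The part of the marker shift in the results for the receptors was not tested, but the levels can be set against each other. As a percent of the summed marker TPM of the same library, Tlr7 was 0.457, 0.367 and 0.342 in the rAAV8-Scramble group and 0.571, 0.490 and 0.542 in the rAAV8-Hnf1aos1 group, still without overlap. Myd88 on that scale was 3.03 to 3.77 against 3.39 to 3.86 and overlapped. Tlr2 did not overlap and was higher (0.338 to 0.511 against 0.606 to 2.30), whereas Tlr4 did not overlap and was lower (0.583 to 0.640 against 0.455 to 0.504). The ranges of the other 6 genes overlapped on this scale. The marker sum was higher in every rAAV8-Hnf1aos1 library, so a gene with unchanged TPM comes out lower on this scale. Before the division the TPM of Tlr4 overlapped, at 1.93 to 2.44 in the rAAV8-Scramble group and 2.06 to 2.37 in the rAAV8-Hnf1aos1 group. The share of all genes without overlap on this scale was not computed. For normalized counts it was 28.9% in either direction.

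**Figure D3:**
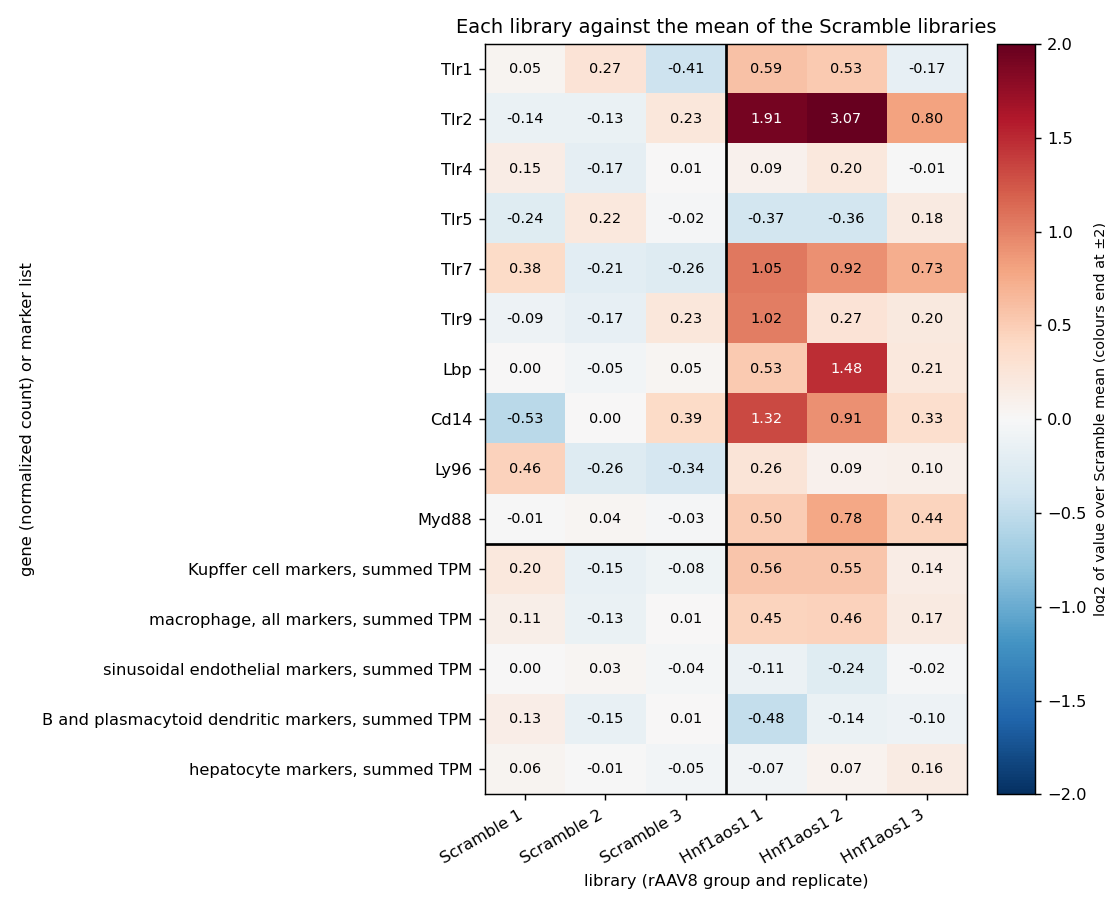
Log2 of each library's value over the mean of the rAAV8-Scramble libraries, for the normalized counts of the 10 genes (upper rows) and the summed TPM of 5 marker lists (lower rows), with the libraries in columns. Red is higher and blue lower, and colours end at 2 in each direction. The column of rAAV8-Hnf1aos1 replicate 3 is paler than those of replicates 1 and 2 for most genes and for the Kupffer cell and macrophage markers.

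A further 87 genes of Toll-like receptor signalling and bacterial sensing were examined by step, and 74 had enough counts to be tested. Of these, 5 were called higher and 1 lower, against 3.09% and 3.23% of all genes. The median log2 fold change was 0.28, with 59 of 74 above 0, against 49.9% of all genes. These genes too were not drawn at random, and the counts were not tested as a set. With libraries scaled to the spike-ins, 31 were called higher and 1 lower, where 18.6% of all genes were called higher.

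Among the 8 other receptors and accessory proteins, only Tlr3 was called higher, as were 3.09% of all genes. TLR3 binds double-stranded RNA in endosomes and signals through TRIF, encoded by Ticam1, not through MyD88. Its gene had 251, 196 and 296 normalized counts in the rAAV8-Scramble libraries and 419, 503 and 389 in the rAAV8-Hnf1aos1 libraries, with a log2 fold change of 0.82 (SE 0.15, adjusted p = 0.0141). The call was lost by a small margin without rAAV8-Hnf1aos1 replicate 2 (adjusted p = 0.0521), and it was also lost with limma on TPM (adjusted p = 0.123). Tlr13, a receptor for bacterial ribosomal RNA, had a log2 fold change of 0.85 (adjusted p = 0.0978), Tlr6 of 0.55 (adjusted p = 0.320), Tlr8 of 0.35 (adjusted p = 0.263), and Tlr11, at 7 to 14 normalized counts, of -0.43 (adjusted p = 0.577).

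Of the 8 genes for receptor folding, trafficking and other adaptors, 3 were called higher, against 3.09% of all genes. Unc93b1, whose product carries the nucleic acid-sensing receptors to endosomes, had 448, 487 and 566 normalized counts against 742, 729 and 609 (log2 fold change 0.47, adjusted p = 0.0381). Hsp90b1, an endoplasmic reticulum chaperone that folds Toll-like receptors and many other secretory proteins, had a log2 fold change of 0.51 (adjusted p = 0.0270). Pik3ap1, an adaptor between Toll-like receptors and PI3 kinase, had one of 0.48 (adjusted p = 0.0480). When single libraries were left out, the calls of Unc93b1 and Pik3ap1 were kept only without rAAV8-Hnf1aos1 replicate 3, and that of Hsp90b1 also without rAAV8-Scramble replicate 1. Without any other library the adjusted p was 0.0848 to 0.123 for Unc93b1, 0.111 to 0.168 for Pik3ap1 and 0.0575 to 0.131 for Hsp90b1. With all libraries, library totals as the scaling ended the calls of Unc93b1 (adjusted p = 0.0847) and Pik3ap1 (adjusted p = 0.0877), and so did the replicate block (adjusted p = 0.0731 and 0.0808). That of Pik3ap1 was also lost with voom (adjusted p = 0.0635) and with a minimum mean of 10 counts (adjusted p = 0.0501). All 3 calls were lost with limma on TPM (adjusted p = 0.122 to 0.252). Ticam2, the bridge from TLR4 to TRIF, had the highest value of this list at 1.28 on 2 to 16 normalized counts (adjusted p = 0.133), and Cnpy3, a co-chaperone of Hsp90b1, the lowest at 0.02.

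None of the 16 kinases and ubiquitin ligases and none of the 10 transcription factors was called by edgeR. An unadjusted p under 0.05 was found for 4 of the 16 and 2 of the 10, near the 23.4% of all genes. Traf6, the ubiquitin ligase downstream of MyD88 (0.34, adjusted p = 0.0504), and Tbk1, the kinase that activates IRF3 (0.40, adjusted p = 0.0503), lay just outside the threshold. Ikbke had the highest log2 fold change of the kinases at 0.57 (adjusted p = 0.259) and Ikbkg, the regulatory subunit of the IkappaB kinase, the lowest at -0.38 (adjusted p = 0.0604). Irf7, an interferon-inducible factor that acts downstream of TLR7 and TLR9, had 639, 311 and 443 normalized counts against 1743, 1593 and 964. Its groups did not overlap, and the log2 fold change of 1.62 had an adjusted p of 0.0696. Rel had the lowest value of the transcription factors, -0.23 (adjusted p = 0.270).

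Of 11 brakes on the pathway 10 were tested and 1 was called lower, against 3.23% of all genes. This was Nfkbia, which encodes the NF-kappaB inhibitor IkappaB-alpha and is itself induced by NF-kappaB. It had 458, 530.2 and 459 normalized counts in the rAAV8-Scramble libraries and 305, 252 and 322 in the rAAV8-Hnf1aos1 libraries, with a log2 fold change of -0.72 (SE 0.12, adjusted p = 0.00867). Without rAAV8-Scramble replicate 3 it missed the threshold (adjusted p = 0.0552), as it did with limma on TPM (adjusted p = 0.0593). Irak3, a myeloid inhibitor of MyD88 signalling, had 14.4 to 22.0 normalized counts against 28.1 to 52.3 (0.91, adjusted p = 0.133), and Socs1 had the highest value at 0.96 (adjusted p = 0.291).

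Among 21 inducible outputs only 10 had enough counts, and Cxcl10, a chemokine induced by interferons and NF-kappaB, was the 1 called. Of all genes, 3.09% were called higher. Cxcl10 had 70.8, 70.2 and 44.0 normalized counts against 115, 125 and 102 (log2 fold change 0.89, SE 0.21, adjusted p = 0.0328). Its call was lost without rAAV8-Scramble replicates 2 (adjusted p = 0.0655) or 3 (adjusted p = 0.133) and without rAAV8-Hnf1aos1 replicates 1 (adjusted p = 0.0679) or 2 (adjusted p = 0.113). It was also lost with limma on TPM (adjusted p = 0.103). The acute phase gene Saa2 had the largest log2 fold change of the list, 4.86, and Lcn2 had 4.59, Saa1 4.297 and Cxcl1 2.58, with adjusted p from 0.176 to 0.217. Their rAAV8-Hnf1aos1 libraries differed widely: Saa2 had 63.6, 69.2 and 147 normalized counts in the rAAV8-Scramble libraries and 1287, 6671 and 173 in rAAV8-Hnf1aos1 replicates 1, 2 and 3. Saa1 and Saa2 are near-identical copies, so the split of reads between them is uncertain. Tnf, Il6, Il10, Il12b, Ifnb1, Ccl3, Ccl4, Cxcl2, Ptgs2, Nos2 and Acod1 had too few counts to be tested, and Ccl2 had the lowest value at -0.24 (adjusted p = 0.762).

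Of 13 other sensors of LPS and bacteria 12 were tested and none was called by edgeR. An unadjusted p under 0.05 was found for 3 of the 12, near the 23.4% of all genes. Marco, a macrophage scavenger receptor, had the highest log2 fold change at 1.41 (adjusted p = 0.0797), on 23.6, 39.5 and 42.9 normalized counts against 76.3, 152 and 54.3. Cd36 had the lowest at -0.38 (adjusted p = 0.634).

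**Figure D4:**
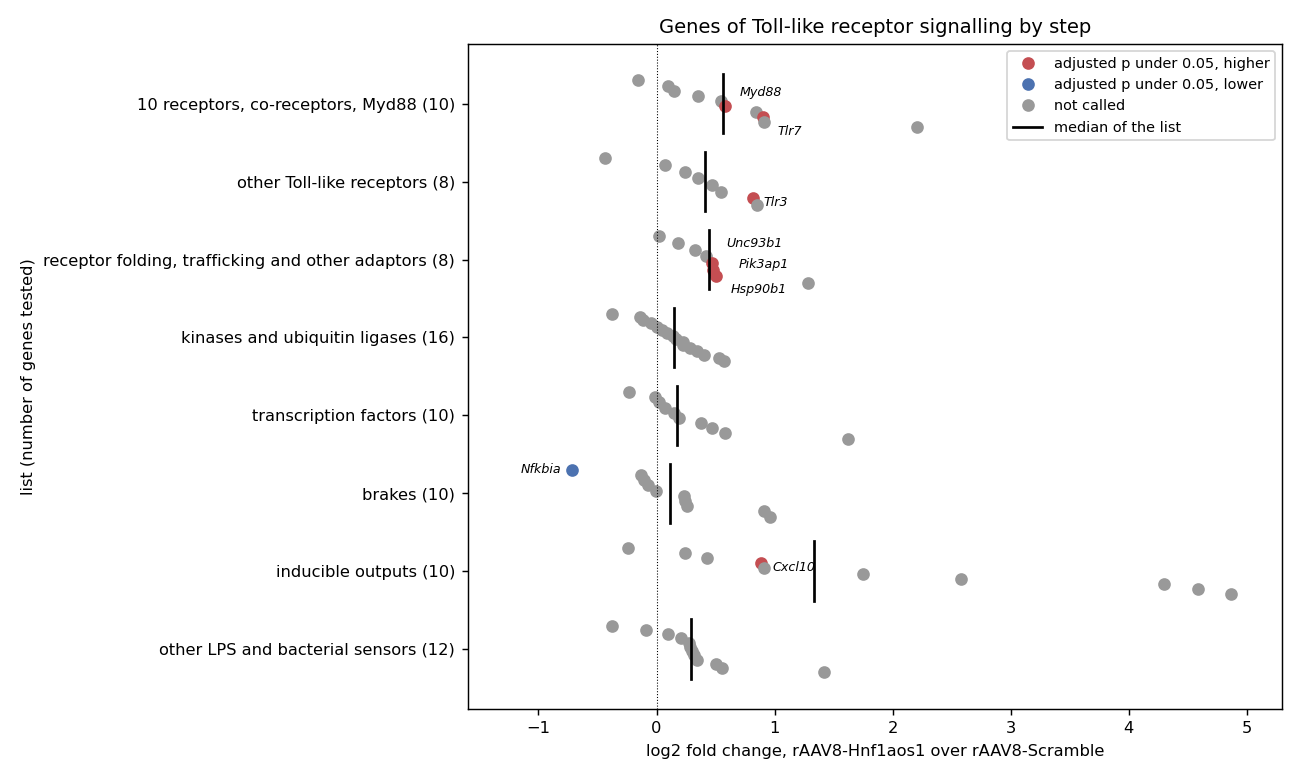
Log2 fold changes (horizontal axis) of the tested genes of each list (rows, with the number tested), 1 point per gene in order of value, with the median of the list as a black line. Named points are those with an adjusted p under 0.05, red for higher and blue for lower. The median is 0.56 for the 10 genes and 1.33 for the inducible outputs, where the 4 largest values, from 2.58 to 4.86, were not called.

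The genes whose profile over the 6 libraries was closest to Tlr2 and Cd14 were sought among 15016 genes, by the root mean square (RMS) difference of mean-centred log2 CPM (read counts scaled to the library total). Nearest to Tlr2 were Gm7694, Steap4, Slc13a5, Tifa and Slc37a1, at RMS differences of 0.31 to 0.34. Steap4 had a log2 fold change of 2.68 (adjusted p = 0.112) and Tifa of 1.78 (adjusted p = 0.104), while Slc13a5 (2.07, adjusted p = 0.00648) and Slc37a1 (1.90, adjusted p = 0.00668) were called. Tifa is known as an adaptor of TRAF6 and Steap4 as a metalloreductase. Nearest to Cd14 were Hunk, Gm44507, Tgtp2, Gpr65 and Ttbk1, at RMS differences of 0.14 to 0.16, of which Gpr65 was called (0.99, adjusted p = 0.0478). With 6 libraries of different total counts, such likeness is a description and shares the difference between the groups.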

How the data were processed

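The authors trimmed the reads with Trimmomatic, aligned them to the mouse genome with STAR and ran featureCounts on the uniquely mapped reads of exons; the raw counts they deposited cover 40895 features. The authors also deposited TPM, whose computation is not described, and a table of normalized counts and one of their own comparison with log2 fold changes and p-values, which were not used. The paper names build GRCm38 and poly(A) selection, and the labels name GRCm39 and depletion of ribosomal RNA, and the tables hold no coordinates. Positions were taken from GENCODE M21 on GRCm38.

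The 92 spike-in rows were left out. They held 1.38% to 1.52% of counts in the rAAV8-Scramble libraries and 1.18% to 1.24% in the rAAV8-Hnf1aos1 libraries, without overlap. In R 4.3.3 with edgeR 4.0.16, counts were scaled by TMM, filtered by filterByExpr and compared between groups by quasi-likelihood tests with no other term, adjusting p over 16327 genes by Benjamini-Hochberg, with calls at an adjusted p under 0.05. The p-values measure the spread between mice, 3 per group, and an exact permutation test of 3 against 3 cannot go below 0.1. DESeq2 1.42.0, limma 3.58.1 (voom, and log2(TPM + 0.1) for genes with a mean TPM of at least 0.1), other scalings and filters, a replicate block and each library left out in turn were the alternatives, and levels relative to macrophage markers were added after seeing the data. Scripts were tested on simulated data, in 3 simulations. Of the genes called there, 11.1% were unchanged genes with edgeR, 15.1% with DESeq2 and 10.1% with voom. These shares are above the threshold of 0.05, so the calls reported here may hold more false ones than the adjusted p states. Of genes simulated with a log2 fold change of 1 in size, edgeR recovered 66.3%, and no call had the wrong sign. Within groups, a chi-square statistic comparing the counts of each pair of libraries was 7.10 to 28.7 per gene, where sampling noise gives about 1, so none was taken as a repeat. Figures were drawn with matplotlib 3.10.9. The depth of 14704746 to 19462398 counts leaves genes of about 20 counts, such as Tlr9, with counting error on top of the differences between mice.

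The 10 genes, the lists of other genes and the cell type markers were chosen with earlier results of these data known. Named in the text are the 10 genes, Hnf1aos1, the called, highest and lowest genes of each list with Tlr3, Tlr6, Tlr8 and Tlr13, marker genes, and the 5 genes most like Tlr2 and Cd14 with an average log2 CPM of at least 0. Traf6, Tbk1, Irf7, Irak3, Lcn2, Saa1, Cxcl1, Acaa1a and Slc22a14 were named after their values were seen.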

Additional observations from a re-analysis of the deposited data

How the results depend on the processing

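Of the 10 genes, 2 were called; the number was 3 with DESeq2, spike-in scaling or no filter, 2 with voom, DESeq2's size factors, library totals or a mean of at least 10 counts, and 0 with limma on log2 TPM, where 3 had an unadjusted p under 0.05. With 1 library left out it ranged from 0 to 4: 0 without rAAV8-Scramble replicate 2, rAAV8-Scramble replicate 3 or rAAV8-Hnf1aos1 replicate 2 (3, 4 and 5 at an unadjusted p under 0.05), 1 without rAAV8-Scramble replicate 1 or rAAV8-Hnf1aos1 replicate 1, and 4 without rAAV8-Hnf1aos1 replicate 3. Of 150 values of single genes over all alternatives, 133 kept direction and call, 10 lost the call, 5 gained it and 2 changed sign (Tlr5 to 0.043 with spike-in scaling; Ly96 to -0.00047 without rAAV8-Scramble replicate 3, with 0.45 as its highest value when 1 library was left out). Of the 74 other pathway genes, 6 were called, 12 with DESeq2, 32 with spike-in scaling, 14 of 86 with no filter, 0 of 83 with limma on log2 TPM (18 at an unadjusted p under 0.05), and 1 to 17 with 1 library left out (5 without rAAV8-Scramble replicate 1, 2 without rAAV8-Scramble replicate 2 or rAAV8-Hnf1aos1 replicate 1, 1 without rAAV8-Scramble replicate 3 or rAAV8-Hnf1aos1 replicate 2, 17 without rAAV8-Hnf1aos1 replicate 3). Over all genes, 1032 of 16327 tested were called (505 higher), and 3393 of 16267 with spike-in scaling (3033 higher). The number was 1902 of 27496 with no filter and 62 of 21904 with limma on log2 TPM (19 higher). With library totals, 319 of 1048 calls were higher. With 1 library left out, the calls over all genes also moved. They ranged from 103 of 16649 (without rAAV8-Scramble replicate 3) to 1881 of 16762 (without rAAV8-Hnf1aos1 replicate 3). The log2 fold change of Hnf1aos1 passed the threshold with DESeq2 (-0.74), voom (-0.77) and no filter (-0.74), and ranged from -1.01 to -0.60 with 1 library left out, where it passed without rAAV8-Hnf1aos1 replicate 3 (-1.01, adjusted p = 0.000261). The causes of these changes were not tested.

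The replicate numbers did not pair the samples: deviations of same-numbered libraries correlated across genes by -0.023, 0.023 and 0.003. With the number as a replicate block, 2 of the 10 genes, 5 of the pathway genes and 878 of all genes were called, and Hnf1aos1 passed the threshold at -0.77.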

Other observations

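Markers of other cell types were examined by list. Of all genes, 3.09% were called higher and 3.23% lower. Of 4 monocyte markers 3 were tested and Plac8 was called higher (log2 fold change 0.85, adjusted p = 0.0360 in edgeR). The others tested were not called, Ly6c2 at 0.69 (adjusted p = 0.450) and Ccr2 at -0.07 (adjusted p = 0.923). The summed TPM of the list overlapped, at 4.03 to 7.42 in the rAAV8-Scramble and 5.17 to 10.8 in the rAAV8-Hnf1aos1 libraries. Of 6 neutrophil markers only Csf3r had enough counts (0.44, adjusted p = 0.276), Ly6g was at 0 in every library, and the summed TPM was 1.77 to 3.07 against 4.39 to 7.85. This sum rests in part on genes too low to be tested. Over all libraries S100a8 had 1.0 to 10.5 normalized counts, S100a9 0 to 11.4, Retnlg 0 to 3.8 and Mmp8 0 to 6.2. Mmp8 was highest in rAAV8-Scramble replicate 1. Among B cell and plasmacytoid dendritic cell markers, Ccr9 was called lower (-0.88, adjusted p = 0.0369), with 72.8, 64.8 and 70.4 normalized counts against 31.5, 39.9 and 41.7, whereas Siglech, also a plasmacytoid dendritic cell gene, had a log2 fold change of 0.22 (adjusted p = 0.734). Each of these calls was lost in part of the fits with 1 library left out: Plac8 and Ccr9 kept theirs only without rAAV8-Hnf1aos1 replicate 3, with adjusted p of 0.0739 to 0.133 and 0.0763 to 0.134 without any other library. With all libraries, Plac8 also lost its call with voom (0.0514), library totals (0.0528), the replicate block (0.0730) and limma on TPM (0.166). Ccr9 lost its call with DESeq2 (0.0505), the replicate block (0.0655) and limma on TPM (0.0899). No marker of T and NK cells, sinusoidal endothelium or stellate cells was called by edgeR, with 0, 0 and 1 at an unadjusted p under 0.05 (23.4% of all genes). The medians were 0.06, -0.03 and -0.11.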
